A study of Mus musculus with 8 samples.

Results

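The transcription factors examined here are the 8 usually grouped as inducers of epithelial-mesenchymal transition (EMT): Zeb1, Zeb2, Snai1, Snai2, Twist1, Twist2, Prrx1 and Prrx2. They were taken as a fixed list of gene symbols. Every probe set annotated to a listed gene alone was kept, which gave 21 of the 45037 probe sets that are not array controls and 8 of the 18193 genes with a probe set of their own. Messenger RNA had been measured with Affymetrix whole-genome mouse arrays in 3 cell types, all labelled wild type. Primary mouse embryonic fibroblasts (MEF, 2 arrays) were grown in serum, and the labels give no embryo age. Neural precursor cells (NPC, 3 arrays) were derived from ES cells in culture through embryoid bodies and selection in ITSFn medium, and were maintained in FGF2 and EGF2, as the label spells the factors. ES cells (3 arrays, line V6.5) were kept with leukemia-inhibiting factor on irradiated MEFs and then passaged without feeders on gelatin. Nothing in the labels says whether the arrays within a group are different cultures or embryos. The p-values therefore speak of the scatter among these arrays alone, which may be technical.

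EMT is the program by which cells of an epithelial sheet lose their junctions and take up a mesenchymal, migratory form, as happens at gastrulation and when neural crest leaves the neural tube. Zeb1 and Zeb2 are zinc finger and homeodomain repressors, Snai1 (Snail) and Snai2 (Slug) are zinc finger repressors, Twist1 and Twist2 are basic helix-loop-helix factors, and Prrx1 and Prrx2 are paired-related homeobox factors of limb and craniofacial mesenchyme. The Zeb and Snail proteins bind E-boxes of the letters CAGGTG in promoters of epithelial genes such as Cdh1. Outside EMT, Zeb1 and Zeb2 are also known as factors of the developing nervous system.

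The arrays fell into their groups. Correlations over all probe sets ran from 0.967 to 0.992 within groups and from 0.858 to 0.872 between groups, with the lowest value within NPC, where NPC 1 stood apart from the other two. Levels are given as log2(intensity + 16) after quantile normalization unless a deposited intensity is named, so differences of dim genes are understated. No detection calls were used. The labelled cell types were checked by their markers: the collagen gene Col1a1 was at 12.99 in MEF, 4.15 in NPC and 6.15 in ES cells, Sox2 at 5.54 in MEF, 11.07 in NPC and 12.05 in ES cells, and Pou5f1 at 4.47 in MEF, 4.65 in NPC and 12.01 in ES cells. The MEF arrays were the brightest as deposited. The median level over all genes was 0.573 log2 units higher in MEF than in ES cells before normalization between arrays and 0.013 higher after it. The same difference was 0.79 before and 0.254 after in MEF against NPC, and -0.217 before and -0.241 after in NPC against ES cells.

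All 8 factors were higher in MEF than in ES cells, and only Zeb1, Zeb2 and Twist1 were also called higher in NPC than in ES cells. A gene was called at a limma adjusted p under 0.05 with an absolute log2 difference of at least 1. In MEF against ES cells, 8 of 8 factors were called higher where 12.2% of all genes were. In NPC against ES cells, 3 of 8 were called higher where 10.0% of all genes were, and none was called lower. In MEF against NPC, 6 of 8 were called higher and Zeb1 was called lower, where 10.5% and 7.95% of all genes were. The median log2 difference of the 8 factors was 3.41 in MEF against ES cells, 0.94 in NPC against ES cells and 4.09 in MEF against NPC, while the median of all genes was -0.04, -0.05 and -0.01. Counted in either direction, 25.0% of all genes were called in MEF against ES cells, 22.9% in NPC against ES cells and 18.5% in MEF against NPC. The arrays of the groups did not overlap for 8 of 8 factors in MEF against ES cells (67.8% of all genes), 7 of 8 in NPC against ES cells (52.8%) and 8 of 8 in MEF against NPC (58.0%). Each pair of these comparisons shares the arrays of 1 group, so their values are given side by side and not correlated. In these bulk samples, fewer cells that express a factor and less of its RNA in each cell cannot be told apart.

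**Figure D1:**
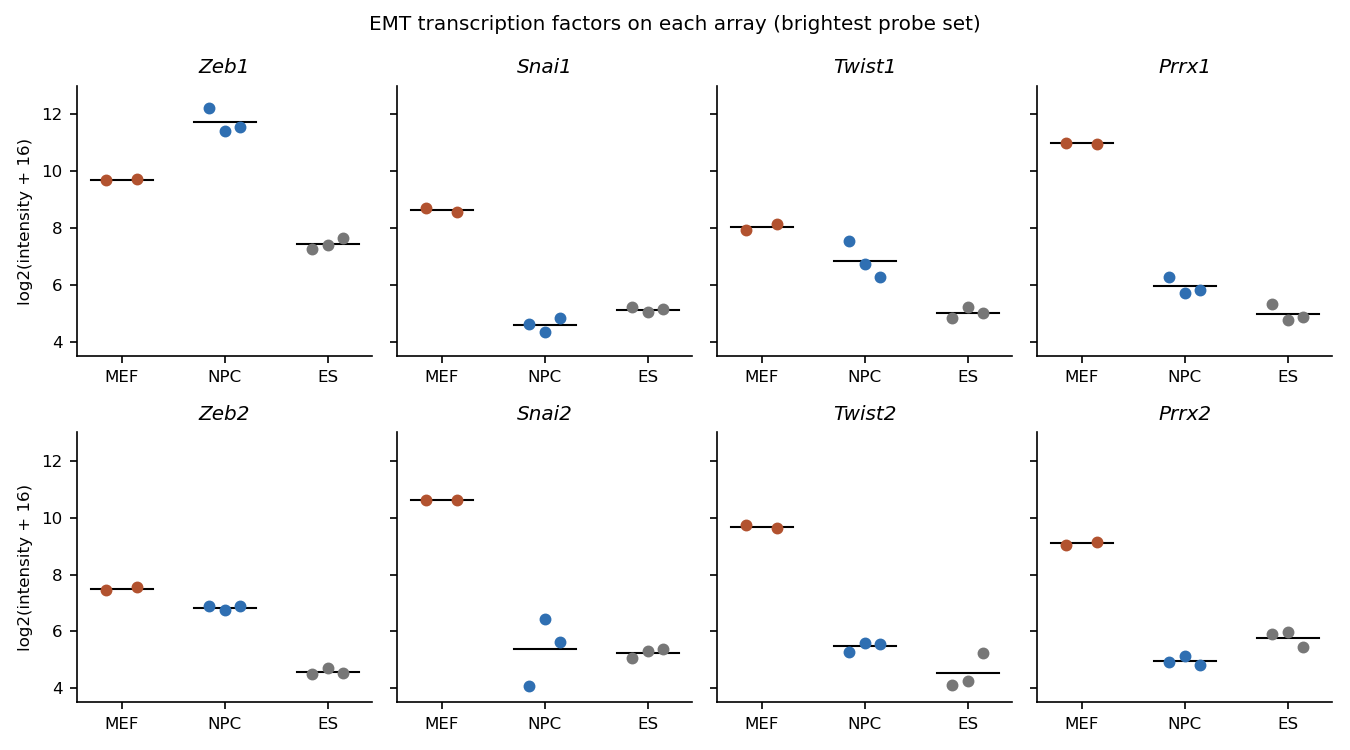
Level of each factor on each array as log2(intensity + 16) after quantile normalization, read from its brightest probe set. Points are arrays of MEF, NPC and ES cells and lines are group means. Zeb1 is highest in NPC, Zeb2 and Twist1 stand above ES cells in both MEF and NPC, and the other 5 factors stand out in MEF.

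The factors followed different orders across the cell types. Snai1, Snai2, Twist2, Prrx1 and Prrx2 were called higher in MEF than in both other cell types with no call between NPC and ES cells, an order held by 4.64% of all genes. Twist1 was called in the order MEF, NPC, ES cells, which 0.583% of all genes showed. Zeb1 was called in the order NPC, MEF, ES cells, which 0.715% of all genes showed. Zeb2 was called higher than ES cells in both MEF and NPC without a call between those cell types, as were 3.4% of all genes.

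Zeb1, which represses Cdh1 and other epithelial genes, was higher in NPC than in both other cell types. Its brightest probe set had deposited intensities of 1280 and 1300 on the MEF arrays, 3870, 2290 and 2520 on the NPC arrays, and 136, 139 and 132 on the ES arrays. The groups did not overlap, and NPC 1 was the highest array. On the log2 scale Zeb1 was at 9.70 ± 0.02 in MEF (SD, n = 2), 11.72 ± 0.43 in NPC (n = 3) and 7.44 ± 0.19 in ES cells (n = 3). It was 4.28 log2 units higher in NPC than in ES cells (95% interval 3.84 to 4.72, limma adjusted p = 2.44e-07), a 19.4-fold difference. It was 2.27 higher in MEF than in ES cells (1.77 to 2.76, limma adjusted p = 2.71e-05) and 2.01 lower in MEF than in NPC (-2.51 to -1.52, limma adjusted p = 8.53e-05). The ES level was not at the bottom of the signal range: it lay between the 75.2 and 78.9 percentile of all probe sets on its array.

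The other Zeb1 probe sets gave the same order between NPC and the other cell types where they carried signal. Between NPC and ES cells 3 of 4 were called higher, and in MEF against NPC the same 3 were called lower, at -2.01, -1.23 and -2.10. They differed for MEF against ES cells. Probe set 1443005_at gave 1.09, while 1446127_at gave 0.44 and was not called, with intensities of 21.4 and 43.4 in MEF, 219, 90.9 and 106 in NPC, and 17, 8.38 and 12.0 in ES cells. The fourth, 1420243_at, was at 10.5 or less on every array. With the mean of the 4 probe sets, the difference of Zeb1 between MEF and ES cells was 0.93 and no longer reached the minimum of 1.

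Zeb2, the paralog also known as SIP1 for its binding of SMAD proteins, was raised in both differentiated cell types. Its brightest probe set had intensities of 251 and 277 in MEF, 94.2, 73.1 and 89.3 in NPC, and 6.44, 9.11 and 6.67 in ES cells, with no overlap between any groups. The ES values lay between the 25.6 and 33.2 percentile of their arrays. The log2 difference was 2.92 ± 0.158 (SE) in MEF against ES cells (limma adjusted p = 8.2e-07) and 2.26 ± 0.141 in NPC against ES cells (limma adjusted p = 1.63e-06). Between MEF and NPC it was 0.66 (95% interval 0.30 to 1.02, limma adjusted p = 0.00879), under the minimum of 1. That last comparison depended on the probe set. Of the 5 Zeb2 probe sets, 1422748_at and 1434298_at were called higher in MEF than in NPC, at 1.32 and 1.26, and the other three were not called. It also depended on the scaling, at 1.12 once arrays were centred on their medians and 1.47 with no scaling between arrays, both called. The Zeb paralogs thus stood in opposite directions between MEF and NPC in their point estimates, Zeb1 at -2.01 and Zeb2 at 0.66, with intervals that do not meet, and the difference between the genes was not itself tested.

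Markers of blood cells were in part higher in MEF than in ES cells, and Zeb2 is a factor that macrophages also use. Of 11 macrophage and blood cell markers, 6 were called higher and 2 lower in MEF than in ES cells, where 12.2% and 12.8% of all genes were. The 6 called higher were Lyz2 at 3.98, Cd53 at 2.83, Tyrobp at 2.82, Fcer1g at 2.68, Ptprc at 2.09 and Adgre1 at 1.65. The 2 called lower were Cd68 at -1.31 and Laptm5 at -1.56. In MEF against NPC, 8 of the 11 were called higher and none lower, where 10.5% and 7.95% of all genes were. The summed normalized intensity of the list was 1307 to 1309 in MEF, 137 to 163 in NPC and 669 to 721 in ES cells. In NPC against ES cells, Cd68 at -3.31 and Laptm5 at -3.7 were called lower, where 12.9% of all genes were. The other 9 of the 11 markers were not called. Lyz2, the macrophage lysozyme gene, was at 8.94 and 9.03 in MEF, 4.24 to 5.13 in NPC and 4.87 to 5.16 in ES cells. Csf1r, the receptor that marks the macrophage lineage, was at 6.83 in MEF and 6.13 in ES cells, a log2 difference of 0.71 that was not called. No marker of the list had an intensity of 0 on all arrays of a group, which does not show that its RNA was present. The part of such cells in the Zeb2 level of MEF was not tested.

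Snai1, the Snail repressor that acts early in EMT, was a MEF gene in these data. Its single probe set had intensities of 640 and 576 in MEF, 8.0, 3.1 and 10.8 in NPC, and 21.7, 15.1 and 16.4 in ES cells. The MEF arrays stood far above all others, and the NPC arrays lay below every ES array. In MEF it exceeded ES cells by 3.5 log2 units (95% interval 3.06 to 3.94, limma adjusted p = 9.41e-07) and NPC by 4.04 (3.6 to 4.48, limma adjusted p = 5.49e-07). Between NPC and ES cells it was -0.54 (-0.93 to -0.15, limma adjusted p = 0.0288), short of the minimum of 1. With a pseudocount of 1 in place of 16 that difference was -1.22 and was called. The NPC arrays lay at or below the 37.6 percentile and the ES arrays at or below the 48.3 percentile.

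Snai2, the Slug repressor of neural crest and mesenchyme, was also a gene of MEF, with NPC arrays that scattered widely. Probe set 1447643_x_at had intensities of 2440 and 2460 in MEF, 0.730, 56.3 and 30.3 in NPC, and 17.5, 21.7 and 21.1 in ES cells. The second, 1418673_at, which does not carry the suffix for shared sequence, had 1050 and 1310 in MEF, 1.14, 19.3 and 15.9 in NPC, and 12.3, 11.1 and 10.9 in ES cells. Both placed MEF above every other array, and both put NPC 1 below all ES arrays and NPC 2 above them. It differed by 5.36 ± 0.543 log2 units (SE) in MEF against ES cells (limma adjusted p = 3.81e-05) and 5.24 ± 0.543 in MEF against NPC (limma adjusted p = 6.64e-05). From the second probe set these differences were 4.76 and 4.74. Between NPC and ES cells Snai2 differed by 0.12 with an interval of -0.98 to 1.23 (limma adjusted p = 0.873), a width set by the spread of the NPC arrays. Without NPC 1 the value was 0.78, without NPC 2 it was -0.40 and without NPC 3 it was -0.01, none of them called.

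Twist1, the basic helix-loop-helix factor of cranial mesenchyme, was intermediate in NPC. It had intensities of 363 and 421 in MEF, 150, 72.3 and 55.7 in NPC, and 13, 19.3 and 13.9 in ES cells, and the groups did not overlap. NPC 1 was the highest NPC array for Twist1, as it was for Zeb1. The log2 difference was 3.01 ± 0.32 (SE) in MEF against ES cells (limma adjusted p = 5.13e-05) and 1.83 ± 0.286 in NPC against ES cells (limma adjusted p = 0.000583). Between MEF and NPC it was 1.18 ± 0.32 (limma adjusted p = 0.0163), a call that rested on few arrays. Without NPC 3 the difference was 0.90, without MEF 1 it was 1.28 (limma adjusted p = 0.068) and without MEF 2 it was 1.08 (limma adjusted p = 0.114). A fit of MEF and NPC alone left 1.18 (limma adjusted p = 0.0518), and a pseudocount of 64 gave 0.90.

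Twist2, known as Dermo1 from its expression in dermis, was called higher in MEF than in both other cell types. It had intensities of 1320 and 1230 in MEF, 22.4, 26.4 and 27.8 in NPC, and 1.44, 2.82 and 18.4 in ES cells. MEF stood above all other arrays, and ES 3 was far brighter than ES 1 and ES 2. Its log2 difference was 5.14 ± 0.312 (SE) in MEF against ES cells (limma adjusted p = 1.61e-06) and 4.21 ± 0.312 in MEF against NPC (limma adjusted p = 7.92e-06). Between NPC and ES cells it was 0.93 (95% interval 0.30 to 1.56, limma adjusted p = 0.0214) and missed the minimum. It was called at 1.28 without ES 3, at 1.02 without NPC 1, at 1.13 with array weights and at 2.25 with a pseudocount of 1. The interval in NPC against ES cells overlaps that of Twist1 (1.18 to 2.48), and the difference between the paralogs was not tested.

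Prrx1, which marks limb bud and craniofacial mesenchyme and its fibroblasts, was called higher in MEF than in both other cell types. Its brightest probe set had intensities of 3190 and 3030 in MEF, 57.9, 30.4 and 37.0 in NPC, and 24.2, 10.4 and 11.7 in ES cells. The MEF arrays were more than an order of magnitude above the rest, while every NPC array was above every ES array. Prrx1 was higher by 6.0 log2 units (95% interval 5.51 to 6.49, limma adjusted p = 9.67e-08), or 63.9-fold, in MEF against ES cells. It was 5.04 (4.55 to 5.53, limma adjusted p = 2.77e-07) in MEF against NPC. Of its 6 probe sets, 5 were called higher in MEF in both comparisons, from 4.34 to 6.0 and from 3.64 to 5.04, and 1458004_at stayed at 2.70 or below on every array. Set against ES cells, NPC gave 0.96 (limma adjusted p = 0.00273) for the brightest, and the 6 together ran from -0.07 to 0.96, none of them called. Without ES 1, NPC 2 or NPC 3 the gene was called, at 1.12, 1.06 and 1.02, as it was with trimmed mean scaling, at the minimum of 1, and with a pseudocount of 1, at 1.5. With the mean of its 6 probe sets the difference was 4.01 in MEF against ES cells, still called, and 0.43 in NPC against ES cells.

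Prrx2, its paralog, was also a MEF gene, and its NPC level was below that of ES cells. Its single probe set had intensities of 817 and 875 in MEF, 13.6, 15.6 and 10.4 in NPC, and 44.5, 42.6 and 22.2 in ES cells. That probe set carries the suffix _a_at, which the alternative without shared-sequence probe sets leaves out. No NPC array reached the lowest ES array. The log2 difference was 3.32 ± 0.206 (SE) in MEF against ES cells (limma adjusted p = 1.84e-06) and 4.14 ± 0.206 in MEF against NPC (limma adjusted p = 6.69e-07). For NPC against ES cells it was -0.82 (95% interval -1.24 to -0.40, limma adjusted p = 0.00498) and was not called. With a pseudocount of 1 it was -1.32 and called. The paralogs therefore had point estimates of opposite sign in NPC against ES cells, 0.96 for Prrx1 and -0.82 for Prrx2, with intervals that do not meet and no test between the genes.

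**Figure D2:**
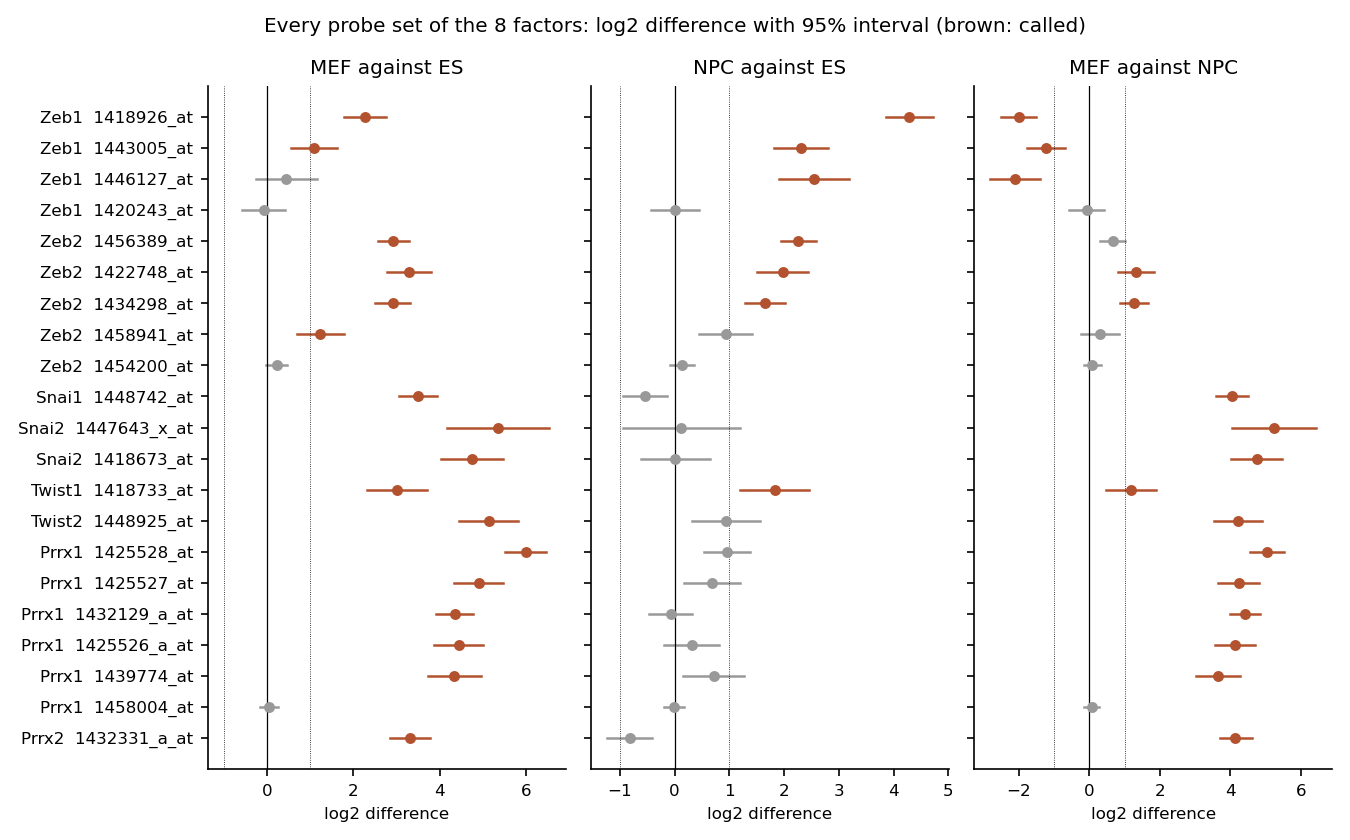
Log2 difference of each of the 21 probe sets with its 95% interval from limma, in MEF against ES cells, NPC against ES cells and MEF against NPC. Brown marks called probe sets, and dotted lines mark a difference of 1 in either direction. Called probe sets of a gene lie on the same side of 0 in each comparison, and those of Zeb1 lie below 0 in MEF against NPC.

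Counted by probe set, 17 of 21 were called higher in MEF than in ES cells (9.82% of all probe sets), 7 of 21 in NPC than in ES cells (8.99%) and 13 of 21 in MEF than in NPC (8.1%). The 3 called lower in MEF than in NPC were all of Zeb1, where 8.1% of all probe sets were called lower. In either direction, 19.4% of all probe sets were called in MEF against ES cells, 17.9% in NPC against ES cells and 16.2% in MEF against NPC. Probe sets of 1 gene measure the same RNA and are not independent.

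The epithelial genes that these factors are known to repress were mostly lower in both MEF and NPC than in ES cells. Cdh1, the epithelial cadherin, was at 5.28 and 5.03 in MEF, 4.49, 4.13 and 4.73 in NPC, and 11.21, 11.01 and 10.95 in ES cells. Epcam, an epithelial adhesion molecule, was at 4.11 to 4.17 in MEF, 4.08 to 4.20 in NPC and 10.64 to 10.73 in ES cells. Of 34 measured epithelial genes, 32 were called lower and none higher in NPC than in ES cells, where 12.9% of all genes were called lower, with a median log2 difference of -2.53. In MEF against ES cells 24 of 34 were called lower, where 12.8% of all genes were, and Krt19 was called higher, with a median of -2.22. Between MEF and NPC, 8 were called higher and none lower, where 10.5% and 7.95% of all genes were. The largest were Pkp2, of desmosomes, at 4.71, and the keratin genes Krt19 at 3.40 and Krt18 at 2.38.

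In the NPC arrays with this lower epithelial RNA, Zeb1, Zeb2 and Twist1 were called higher than in ES cells. Snai1, Snai2, Twist2, Prrx1 and Prrx2 were not, though Prrx1 at 0.96 and Twist2 at 0.93 lay just under the minimum of 1. A link between the factors and the epithelial genes was not tested. Spint2, a membrane protease inhibitor of epithelia, was 5.67 log2 units lower in NPC, the claudin gene Cldn7 was 4.59 lower in MEF, and Cdh1 was 6.60 lower in NPC and 5.90 lower in MEF, each against ES cells (limma adjusted p from 2.01e-07 to 1.04e-08). Epithelial transcription and splicing factors that oppose EMT fell in part. Of 17, 8 were called lower and 2 higher in each comparison with ES cells. Over all genes, 12.9% were called lower and 10.0% higher in NPC, and 12.8% and 12.2% in MEF. Esrp1, an epithelial splicing regulator, was 4.19 lower in NPC and 4.07 lower in MEF, and the grainyhead factor gene Grhl3 was 3.17 lower in NPC and 3.03 lower in MEF. Klf5 was 5.01 lower in NPC than in ES cells and 2.38 higher in MEF than in NPC. Cebpa was the gene of this list called higher in both, at 1.81 in NPC and 1.93 in MEF, with Foxa1 at 1.52 in NPC and Gata3 at 1.75 in MEF.

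The promoters of these epithelial genes are shown for the E-box that Zeb and Snail proteins bind. Windows from 250 bases before to 50 after each gene start were read from RefSeq (GRCm38.p6). Of the 35 listed epithelial genes 21 matched. Cdh1 had no window, so its promoter was not read. CAGGTG or its reverse complement CACCTG was in a window of 18 of the 21 genes (85.7%), against 22.6% of all 27025 genes with a window, and 10 of the 21 (47.6%) held 2 or more copies, against 3.32%. A different E-box, CAGCTG, which cannot occupy the same bases as CAGGTG, was in windows of 3 of the 21 (14.3%), against 18.3% of all genes. The epithelial list was drawn from genes known as targets in EMT, some of them studied for these E-boxes, so the share is a description and carries no test. The stretches below end at the base before the start, with each copy in capitals. They were chosen for their copies after the search, and the genes' values follow.
Epcam, chr17:87635779-87635978, plus strand: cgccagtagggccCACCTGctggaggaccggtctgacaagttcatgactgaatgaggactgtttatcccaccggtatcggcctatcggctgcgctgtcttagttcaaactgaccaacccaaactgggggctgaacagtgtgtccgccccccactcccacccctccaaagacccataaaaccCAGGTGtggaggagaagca
Crb3, chr17:57062071-57062200, plus strand: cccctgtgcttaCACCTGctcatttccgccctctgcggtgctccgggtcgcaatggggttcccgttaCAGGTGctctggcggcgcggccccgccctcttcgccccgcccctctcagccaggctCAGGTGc
Spint2, chr7:29281978-29282077, minus strand: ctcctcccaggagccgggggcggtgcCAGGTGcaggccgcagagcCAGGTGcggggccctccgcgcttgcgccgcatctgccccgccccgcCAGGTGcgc
Ap1m2, chr9:21312334-21312433, minus strand: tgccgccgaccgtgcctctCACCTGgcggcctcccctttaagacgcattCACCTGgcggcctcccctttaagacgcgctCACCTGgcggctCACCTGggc
Cldn4, chr5:134946935-134946994, minus strand: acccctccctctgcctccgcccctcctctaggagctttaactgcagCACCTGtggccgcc

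These stretches hold 2 copies in Epcam, 3 in Crb3, which encodes a polarity protein, 3 in Spint2, 4 in Ap1m2, which encodes an adaptor subunit of epithelial sorting, and 1 in the claudin gene Cldn4. In NPC against ES cells the log2 differences were -6.55 for Epcam, -2.34 for Crb3, -5.67 for Spint2, -4.47 for Ap1m2 and -4.34 for Cldn4. In MEF against ES cells they were, in the same order of genes, -6.56, -1.74, -4.40, -4.47 and -3.55. The 3 epithelial genes whose windows lacked the letters, Spint1, Cgn and Jup, were at -4.12, -2.35 and -1.32 in NPC against ES cells, all called lower. In MEF against ES cells Spint1 was at -3.87 and Cgn at -2.30, both called lower, and Jup was at 0.00 and not called. Among the factors themselves 6 of 8 matched a window, and of these Snai1 alone held the letters. Zeb1 and Snai2 had no window, so their promoters were not read. Its copy lies 126 bases before the start in the stretch below, which is shown because no other factor's window held the letters.
Snai1, chr2:167538055-167538194, plus strand: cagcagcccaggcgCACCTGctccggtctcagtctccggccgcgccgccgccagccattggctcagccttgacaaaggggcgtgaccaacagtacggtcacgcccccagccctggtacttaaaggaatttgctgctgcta

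**Figure D3:**
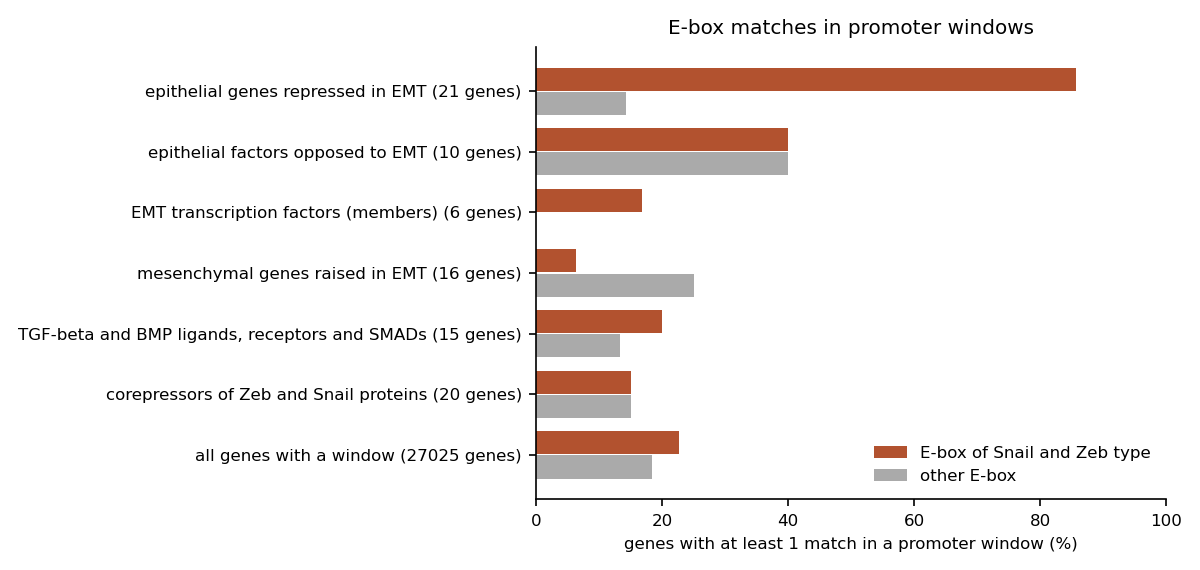
Share of genes with at least 1 match in a promoter window of 300 bases, by gene list, for the E-box CAGGTG (either strand, brown) and for CAGCTG (grey). The number of genes with a window stands beside each list. Epithelial genes reach 85.7% for the first and 14.3% for the second, against 22.6% and 18.3% of all genes.

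Mesenchymal genes were higher in MEF than in both other cell types, with few exceptions. Of 26 measured, all 26 were called higher in MEF than in ES cells, where 12.2% of all genes were, with a median log2 difference of 4.63. In NPC against ES cells 4 were called higher and 13 lower, where 10.0% and 12.9% of all genes were, with a median of -0.84. Cdh2, the neural and mesenchymal cadherin, was at 10.05 and 10.13 in MEF, 9.64, 9.21 and 9.18 in NPC, and 5.57, 6.01 and 5.31 in ES cells. Vim, the intermediate filament vimentin, was at 13.47 on each MEF array, 13.09 to 13.22 in NPC and 9.75 to 9.98 in ES cells. Fn1, fibronectin, went another way, at 12.90 and 12.98 in MEF, 7.67 to 8.02 in NPC and 11.60 to 11.77 in ES cells. The matrix gene Tnc and the hyaluronan receptor gene Cd44 were the other members called higher in NPC, at 4.63 and 3.21. Between MEF and NPC, 24 were called higher and none lower, where 10.5% and 7.95% of all genes were. Vim (0.32) and Cdh2 (0.75) were the members without a call.

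**Figure D4:**
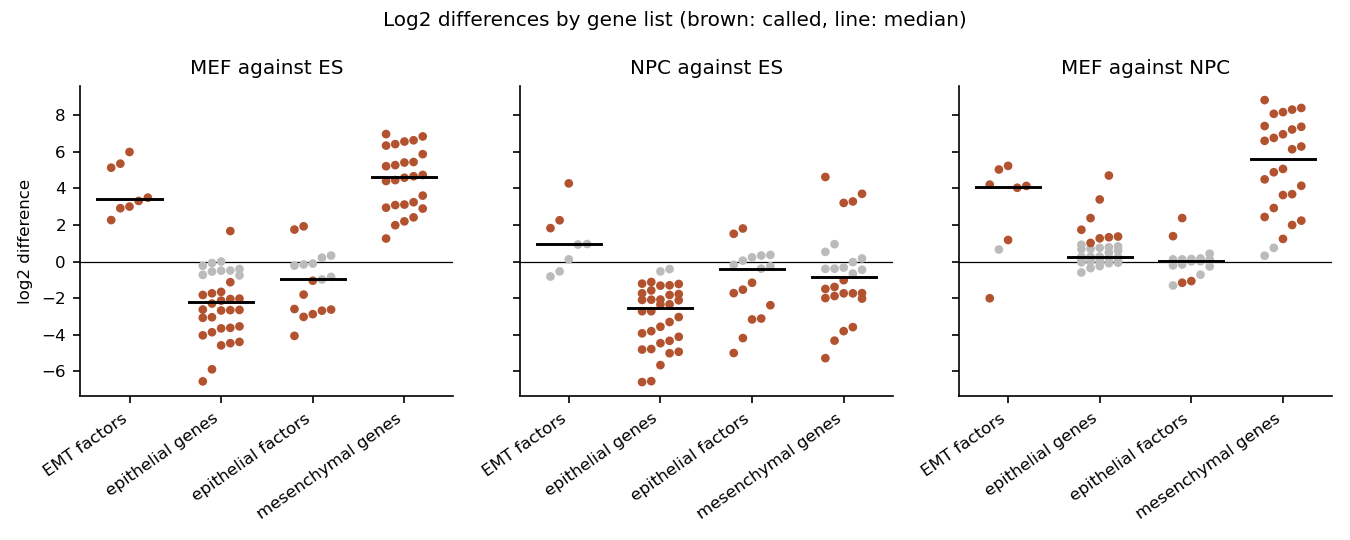
Log2 differences of the 8 factors, 34 epithelial genes, 17 epithelial factors opposed to EMT and 26 mesenchymal genes in MEF against ES cells, NPC against ES cells and MEF against NPC. Points are genes, brown where called, and lines are medians. Epithelial genes have medians of -2.22 and -2.53 against ES cells, while the mesenchymal median is 4.63 in MEF and -0.84 in NPC.

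The lists of partners and regulators are read beside the 22.9% of all genes called in NPC against ES cells and the 25.0% called in MEF against ES cells. Of 12 E-proteins, Id proteins and other partners of Twist, 5 were called higher and 2 lower in NPC than in ES cells, and 5 higher and 1 lower in MEF than in ES cells. The E-protein genes Tcf4 and Tcf12, whose products pair with Twist, were highest in NPC: Tcf4 was at 9.11 in MEF, 11.64 in NPC and 8.23 in ES cells, and Tcf12 at 10.61 in MEF, 11.62 in NPC and 8.56 in ES cells. Id3, which encodes an inhibitor that sequesters E-proteins, was 3.69 higher in NPC and 4.62 higher in MEF than in ES cells. Tcf15, a factor of paraxial mesoderm, was 4.44 lower in NPC and 4.32 lower in MEF. Of 23 corepressors and SMAD partners of Zeb and Snail proteins, 16 had no call in NPC against ES cells and 16 had none in MEF against ES cells. The C-terminal binding protein genes Ctbp1 and Ctbp2 went in opposite directions in MEF against ES cells, at 1.36 and -1.59.

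Ligands and receptors that induce the factors were higher mainly in MEF. Of 23 TGF-beta and BMP pathway genes, 11 were called higher and 1 lower in MEF than in ES cells, and 3 higher and 5 lower in NPC than in ES cells. Over all genes, 12.2% were called higher and 12.8% lower in MEF than in ES cells, and 10.0% and 12.9% in NPC. Tgfb3 was at 10.63 in MEF, 5.39 in NPC and 4.96 in ES cells. The receptor gene Tgfbr2 was 4.02 higher in MEF and 3.85 higher in NPC than in ES cells, while the inhibitory SMAD gene Smad7 was 3.56 lower in NPC than in ES cells. Among genes for turnover of Snail and Twist proteins, 4 of 15 were called higher and 2 lower in MEF than in ES cells. Loxl3, which encodes a lysyl oxidase known to stabilise Snail, was 4.07 higher in MEF than in ES cells and 4.15 higher than in NPC. Of 11 other factors linked to EMT, 6 were called higher and 1 lower in MEF, and 4 higher and 1 lower in NPC, each against ES cells. Foxc2 was 4.07 higher and the AP-1 member gene Fosl1 3.85 higher in MEF, Sox9 was 3.83 higher in NPC, and the third Snail family gene, Snai3, was lower than in ES cells in both, at -1.71 in MEF and -1.73 in NPC.

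Markers of neural crest, a cell type that uses Snai2, Twist1 and Zeb2, had few calls in NPC against ES cells, near the shares of all genes. In NPC against ES cells 1 of 10 was higher, Ets1 at 3.6, and 2 were lower, where 10.0% and 12.9% of all genes were. The summed normalized intensity of the list was 1394 to 1413 in MEF, 846 to 1079 in NPC and 347 to 471 in ES cells. Without Ets1 the sums were 311 to 316 in MEF, 199 to 399 in NPC and 319 to 428 in ES cells. By array, that sum was 399 on NPC 1, 199 on NPC 2 and 227 on NPC 3. Ednrb was at 7.87 on NPC 1, 4.70 on NPC 2 and 4.59 on NPC 3. Sox10, a defining crest factor, was at 5.31 in MEF, 5.36 in NPC and 5.32 in ES cells. Fibroblast markers summed to 37259 to 37963 in MEF, 316 to 678 in NPC and 449 to 496 in ES cells. By array, the fibroblast sum was 678, 316 and 345 in NPC, against 496, 462 and 449 in ES cells. NPC 1, the NPC array with the highest Twist1 and Zeb1, was the only NPC array above the ES arrays. That sum rested largely on Fbln2, at 9.22 on NPC 1, 5.27 on NPC 2 and 5.61 on NPC 3. S100a4 went the other way, at 4.38 on NPC 1, 7.79 on NPC 2 and 7.92 on NPC 3. The fibroblast markers thus went both ways among the NPC arrays. Among the 3 NPC arrays, NPC 1 held the highest level of 5 of 10 fibroblast markers and the lowest of 2, the highest level of 3 of 10 crest markers and the lowest of 6, and the highest level of 7 of 8 neural precursor markers and the lowest of 1. The part of either cell type in the levels of the factors was not tested.

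The genes with the pattern most like each factor were found by Euclidean distance between log2 values centred on the mean of the 8 arrays, with Pearson's r over those 8 arrays as a description. The arrays form 3 groups, so r mostly reflects group means. Genes chosen this way share the factor's pattern by construction. Nearest to Zeb1 were Trib2 (distance 0.32, r = 0.998), Nfib (0.60) and Itgb8 (0.67). Trib2, which encodes a pseudokinase, was at 9.13 and 9.14 in MEF, 11.45, 10.81 and 11.02 in NPC, and 6.85, 6.77 and 6.88 in ES cells, with NPC 1 again highest. Nearest to Zeb2 were Rnf217, Adam9 and Tmed3 (distances 0.46 to 0.49). Nearest to Twist1 were Gpc6, Prkg1 and Megf10 (0.72 to 0.76).

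For the factors called higher in MEF alone, the nearest genes were also high in MEF, which the choice by distance brings with it. Nearest to Snai1 were the apoptosis initiator gene Casp8 (0.42), Cdc42ep3 (0.53) and the fibronectin receptor gene Itga5 (0.58). Nearest to Snai2 were Vgll3 (0.90), Smoc2 (1.26) and Fibin (1.43). The receptor tyrosine kinase gene Axl was among the nearest to both Twist2 (0.99) and Prrx1 (1.05), with levels of 11.50 and 11.57 in MEF, 6.57, 6.58 and 6.79 in NPC, and 5.96, 6.04 and 6.35 in ES cells. Lrrc17 and Msrb3 stood beside it for Twist2, and the collagen gene Col5a1 and Tgfb3 for Prrx1. Nearest to Prrx2 were the netrin receptor gene Unc5b (0.36), Papss2 (0.51) and Fstl3 (0.54).

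**Figure D5:**
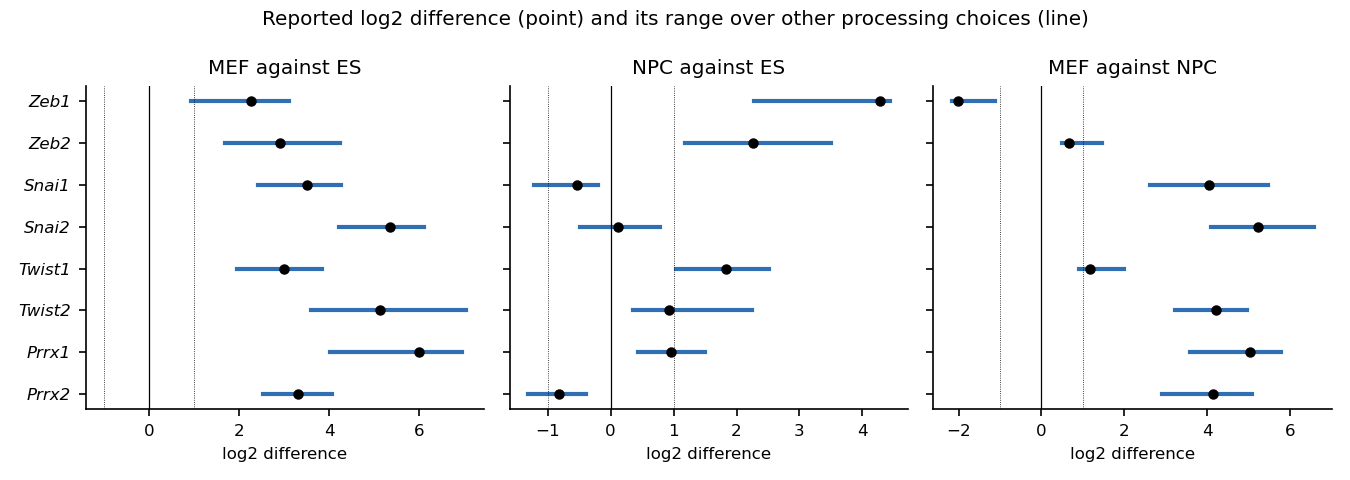
Log2 difference of each factor as reported (point) and its lowest to highest value over the other processing choices and the fits that leave out 1 array (line), in MEF against ES cells, NPC against ES cells and MEF against NPC. Dotted lines mark a difference of 1 in either direction. Snai2 in NPC against ES cells is the line that crosses 0, from -0.49 to 0.78.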

How the data were processed

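Each array's deposited values were linear intensity per probe set. Per the submitters' processing notes the software was GCOS 1.4, whose background and scaling settings are not given in the sources used here. The 64 array controls were dropped, and of the other 45037 probe sets 34945 list a single gene. Symbols were updated by Entrez ID through RefSeq for 34741 of these. The log2 of intensity + 16 was taken, arrays were quantile normalized, and each gene took its probe set with the highest mean log2 value. Tests used limma 3.58.1 under R 4.3.3 (variance trend, 1 linear model of 8 arrays, two-sided, Benjamini-Hochberg adjustment over all genes, or over all probe sets where probe sets are counted). Calls required the adjusted p to be below 0.05 and a log2 difference of 1 or more in size. The number of arrays limits the precision.

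The 8 factors and the other gene lists were chosen with earlier results of these data known. Named genes were all 8 factors, up to 3 called genes of each list in each direction with arrays that do not overlap, the 3 nearest genes of each factor, Cdh1, Epcam, Vim, Cdh2 and Fn1, and marker genes. Genes outside this rule are Crb3, Ap1m2, Cldn4, Spint1, Cgn, Jup and Cd44, chosen after their values were seen. Listed genes that no single-gene probe set measures were not analysed here. On simulated data with 200 of 18193 genes changed by 1.5 log2 units, 94% were called with the right direction for NPC against ES cells, 88% for MEF against ES cells and 88.5% for MEF against NPC, and 2, 3 and 2 of the unchanged genes were called. Alternatives were other scalings, pseudocounts of 1 and 64, leaving out the dimmest 25% of features, the mean over a gene's probe sets, dropping shared-sequence ones, no trend, array weights, a fit of the groups compared, the replicate number as a term, no minimum difference and leaving out each array.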

Additional observations from a re-analysis of the deposited data

How the results depend on the processing

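MEF against ES cells gave 7 or 8 factors called higher and 15 to 17 probe sets under all alternatives but leaving out shared-sequence probe sets, which removes Prrx2 and leaves 7 of 7 factors and 13 of 17 probe sets. The counts of NPC against ES cells moved by over 1.5 times: 7 factors (5 higher, 2 lower) and 13 probe sets were called with a pseudocount of 1, and 7 factors and 14 probe sets by adjusted p alone, against 3 and 7. Leaving out 1 array gave 3 to 4 factors and 7 to 9 probe sets in NPC against ES cells, 8 factors and 16 to 17 probe sets in MEF against ES cells, and 6 to 8 factors and 15 to 16 probe sets in MEF against NPC. In MEF against NPC, where 7 factors were called, 8 were called with median centring, with no scaling between arrays and by adjusted p alone, and 6 with a pseudocount of 64, with only the groups compared and without shared-sequence probe sets. The sign of an individual factor changed only for Snai2 in NPC against ES cells (0.12), to -0.49 with a pseudocount of 1 and and to values from -0.40 (without NPC 2; -0.01 without NPC 3) to 0.78 when an NPC array was left out. The Zeb2 values of 1.21 and 1.2 in MEF against NPC without NPC 2 or NPC 3 come from another probe set, 1422748_at, being the brightest. Over all genes, the calls in NPC against ES cells, MEF against ES cells and MEF against NPC (4173, 4554 and 3359) moved to 2638, 2948 and 2110 with a pseudocount of 64 and to 8530, 8447 and 7145 by adjusted p alone, and with no scaling between arrays MEF against NPC gave 5101. The causes of the other changes were not tested. The replicate numbers of the titles did not pair the arrays, since deviations of same-numbered arrays correlated between -0.02 and 0.023, and with the replicate block the counts were 3, 8 and 7 factors in NPC against ES cells, MEF against ES cells and MEF against NPC, and 7, 17 and 16 probe sets, as without it. Low signal limits the values of dim factors in NPC and ES cells, where no detection call says whether the RNA was present.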
